A study of Mus musculus with 6 samples.

Results

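Glycolysis converts glucose to pyruvate, and cells that release most of that pyruvate as lactate run the pathway fast even where oxygen is present. Fibroblasts rely partly on mitochondrial respiration, and a shift towards glycolysis is a known early feature of their conversion to induced pluripotent stem cells. The genes described here run from glucose entry to lactate: the transporter Slc2a1, the hexokinase Hk2, the phosphofructokinase Pfkl, the aldolase Aldoa, Tpi1, Pgk1, Pgam1, the enolase Eno1, the pyruvate kinase Pkm and the lactate dehydrogenase Ldha. These 10 genes were chosen by name, and 9 of them were followed among the 18303 genes of the expression table. Eno1 was not analysed here.

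The data came from 6 poly(A) RNA libraries. All were made from mouse embryonic fibroblasts of the strain CBA/CaJ X C57BL/6J, all on day 2 of reprogramming and all in the defined medium iCD1. The control, shLuc (a short hairpin RNA against luciferase, which mouse cells lack), held 2 libraries and every other group held 1. The study inhibited the CDP-ethanolamine pathway, which makes phosphatidylethanolamine, in 3 ways: with hairpins against the ethanolamine kinases (shEtnk1/2), with a hairpin against the enzyme of the next step, Pcyt2 (shPcyt2), and by leaving ethanolamine out of the medium of shLuc cells (shLuc-Etn). The last library carried shPebp1, a hairpin against the phosphatidylethanolamine-binding protein Pebp1. The labels give neither the hairpin sequences nor whether cultures were separate, so p-values measure only the spread between these samples, which may be technical.

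Levels are in RPKM, reads per kilobase of transcript scaled to the depth of the library. The libraries held 18547721 to 20107998 reads in genes. Fibroblast markers marked the cells as labelled, with 13 of 13 averaging 1 RPKM or more and a summed level of 10176 (shPebp1) to 13809 RPKM (shEtnk1/2). Epithelial markers summed to 13.4 to 22.5 RPKM over 11 genes. Neural and glial markers summed to 46.4 to 71.8 RPKM, largely from Stmn2, and macrophage markers to 45.7 to 61.1, largely from Lyz2. Endothelial markers summed to 21.7 to 25.5 RPKM, largely from Tek, and cartilage markers to 18.1 to 21.9, largely from Col2a1. Of 8 pluripotency markers 5 were analysed, summing to 621.5 (shEtnk1/2) to 931.6 RPKM (shLuc replicate 1), nearly all from Pou5f1 and Sox2, 2 genes commonly delivered as reprogramming factors, whose endogenous and introduced transcripts were not told apart. Pou5f1 ran from 412.4 RPKM in shEtnk1/2 and 472.4 in shLuc-Etn to 619.8 in shLuc replicate 1, and Sox2 from 200.3 in shLuc-Etn and 208.5 in shEtnk1/2 to 310.7 in shLuc replicate 1. Nanog was at most 0.414 RPKM. Among the targeted genes, Etnk1 stood at 59.1% of the shLuc mean in shEtnk1/2 (limma adjusted p = 0.00401) and Pcyt2 at 72.9% in shPcyt2 (limma adjusted p = 0.160), while Etnk2 was too low to test. The Etnk1 call was lost under 3 of 11 alternatives in processing or in the libraries used. Pcyt2 was also below the shLuc mean elsewhere, at 81.5% in shLuc-Etn, 86.6% in shEtnk1/2 and 93.3% in shPebp1. Pebp1 stood at 99.6 RPKM in shPebp1 and 250.4 RPKM in shLuc replicate 1. It stood at only 100.7 RPKM in the library labelled shLuc replicate 2, so this gene goes against that label, and the results below are also given without each shLuc library where that matters.

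No glycolysis gene passed the test in any of the 9 comparisons, whether between a treatment and shLuc or between treatments. Pkm was the most abundant of the 9 genes and Hk2 the least, and the largest ratio between the highest and the lowest of the 6 libraries was 1.32, for Pfkl. The smallest was 1.08, for Pkm. In RNA from whole cultures, fewer cells of a type and less RNA per cell cannot be told apart.

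Slc2a1 (4:119108745-119137329, mm10), the GLUT1 transporter that lets glucose into most cells, was at 8.77 RPKM in shLuc replicate 1, 9.33 in the library labelled shLuc replicate 2, 10.3 in shEtnk1/2, 10.04 in shPcyt2, 8.86 in shLuc-Etn and 8.96 in shPebp1. It was the only one of the 9 genes that was highest in shEtnk1/2. Hk2 (6:82725027-82774454), which traps glucose as glucose 6-phosphate, was at 5.13 and 6.32 RPKM in the shLuc libraries, 5.07 in shEtnk1/2, 5.67 in shPcyt2, 4.91 in shLuc-Etn and 5.39 in shPebp1. The shLuc pair spread widest for this gene, and only shEtnk1/2 and shLuc-Etn fell outside that pair.

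Pfkl (10:77986949-78009796), a subunit of the phosphofructokinase that commits sugar to glycolysis, was at 15.3 and 17.5 RPKM in the shLuc libraries, 14.7 in shEtnk1/2, 19.4 in shPcyt2, 16.1 in shLuc-Etn and 15.6 in shPebp1. The highest value, in shPcyt2, lay above both controls and rested on 1398 reads, with a 95% Poisson interval of 18.4 to 20.5 RPKM that covers counting error only. Aldoa (7:126795234-126800447), which splits fructose 1,6-bisphosphate, was at 203.9 and 213.3 RPKM in the shLuc libraries, 202.7 in shEtnk1/2, 216.8 in shPcyt2, 178.1 in shLuc-Etn and 204.1 in shPebp1. The shLuc-Etn library stood apart as the lowest, with a Poisson interval of 173.6 to 182.6 RPKM. Tpi1 (6:124810592-124814296), which interconverts the 2 triose phosphates, was at 188.2 and 185.4 RPKM in the shLuc libraries, 161.8 in shEtnk1/2, 184.8 in shPcyt2, 160.5 in shLuc-Etn and 192.1 in shPebp1. Its values fell into a lower pair, shEtnk1/2 and shLuc-Etn, and 4 higher libraries.

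Pgk1 (X:106187100-106203699), which makes the first ATP of the pathway's payoff phase, was at 136.6 and 143.0 RPKM in the shLuc libraries, 128.7 in shEtnk1/2, 155.6 in shPcyt2, 129.1 in shLuc-Etn and 135.1 in shPebp1. Pgam1 (19:41911871-41918665), a phosphoglycerate mutase, was at 196.2 and 208.2 RPKM in the shLuc libraries, 196.3 in shEtnk1/2, 204.2 in shPcyt2, 188.0 in shLuc-Etn and 202.4 in shPebp1. Here 3 treated libraries lay between the controls and shLuc-Etn lay below them. The enolase step follows, for which Eno1 was not analysed. Eno1b, a retrocopy whose reads could not be told apart from those of Eno1 here, had 39.7 to 45.8 RPKM over the 6 libraries and passed no test.

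Pkm (9:59656368-59679375), which makes pyruvate and ATP, was at 454.6 and 461.3 RPKM in the shLuc libraries, 448.2 in shEtnk1/2, 483.4 in shPcyt2, 445.6 in shLuc-Etn and 451.4 in shPebp1. Its 2 splice forms, of which the M2 form is the one typical of proliferating cells, are not told apart in this value. Ldha (7:46845804-46855627), which turns pyruvate into lactate, was at 213.8 and 215.1 RPKM in the shLuc libraries, 192.8 in shEtnk1/2, 225.2 in shPcyt2, and 204.2 in both shLuc-Etn and shPebp1. The shLuc libraries lay close together for this gene, which leaves little room between them. All 4 treated libraries lay outside them, 1 above and 3 below. Of all genes, 31.7% to 51.9% lay below both shLuc libraries, by treated library, and 25% to 36.6% above both.

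Per length, the order of the shLuc means was Pkm at 457.9 ± 4.68 RPKM (SD, n = 2), Ldha at 214.4 ± 0.918, Aldoa at 208.6 ± 6.61, Pgam1 at 202.2 ± 8.48, Tpi1 at 186.8 ± 1.93, Pgk1 at 139.8 ± 4.52, Pfkl at 16.4 ± 1.58, Slc2a1 at 9.05 ± 0.391 and Hk2 at 5.72 ± 0.840. The transporter and the enzymes of the committed early steps therefore had the lowest levels, and the enzymes from aldolase to lactate dehydrogenase the highest. Over the 6 libraries the ranges of Ldha and Aldoa, of Aldoa and Pgam1, and of Pgam1 and Tpi1 overlapped, whereas every other pair of neighbours in this order was separated. Summed over the 9 genes, the level was 1423 and 1459 RPKM in the shLuc libraries, 1361 in shEtnk1/2, 1505 in shPcyt2, 1335 in shLuc-Etn and 1419 in shPebp1, or 0.350% to 0.372% of all RPKM.

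**Figure D1:**
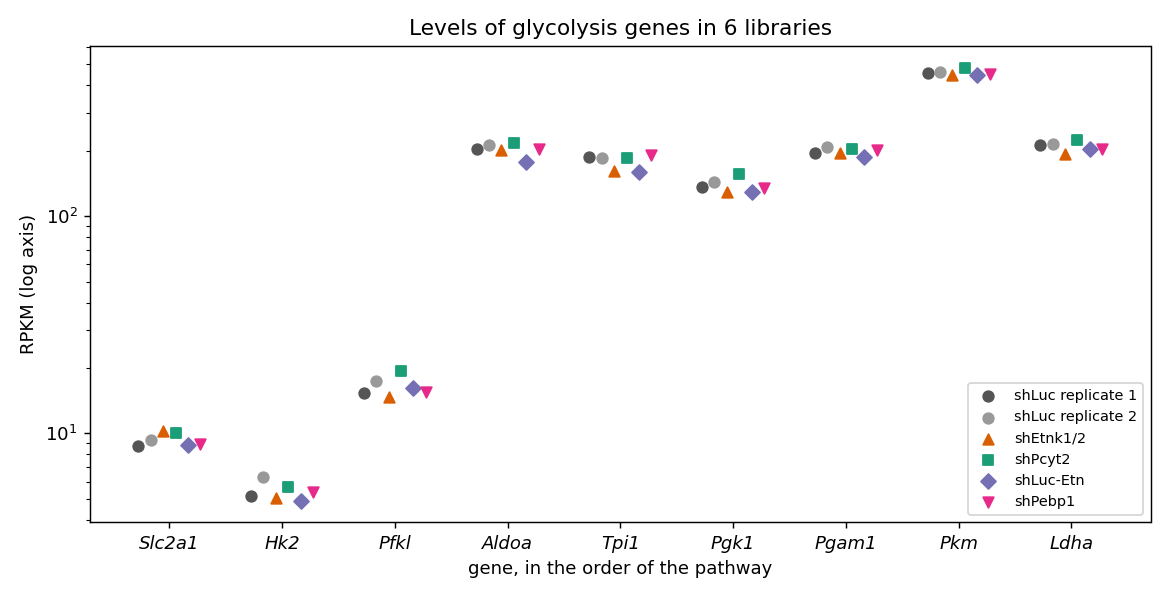
Levels of the 9 glycolysis genes in RPKM (vertical log axis) by gene in pathway order (horizontal axis), with 1 marker for each of the 6 libraries. Markers of 1 gene lie close together beside the gap between genes, from Hk2 at 4.91 to 6.32 RPKM to Pkm at 445.6 to 483.4 RPKM.

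Promoters of 4 of these genes are shown, with the strand read 5′ to 3′. Pfkl and Aldoa had the largest fitted log2 differences in any of the 9 comparisons, and Ldha and Pgk1 were picked, after the matches were counted, as promoters with several matches to a motif of the hypoxia response. Each run covers 250 bases before to 50 bases after the start of transcription, from RefSeq, build GRCm38.p6. Capitals mark ACGTG, the core of the site bound by hypoxia-inducible factors, on either strand, or the E box CACGTG, which contains it.
Pfkl, chr10:78009758-78010057, minus strand: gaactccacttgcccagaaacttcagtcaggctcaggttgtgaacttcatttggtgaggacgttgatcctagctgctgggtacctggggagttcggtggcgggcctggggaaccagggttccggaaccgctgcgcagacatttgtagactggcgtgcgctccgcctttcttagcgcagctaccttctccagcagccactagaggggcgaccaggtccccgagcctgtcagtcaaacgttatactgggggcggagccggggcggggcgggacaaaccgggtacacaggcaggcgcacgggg
Aldoa, chr7:126800398-126800697, minus strand: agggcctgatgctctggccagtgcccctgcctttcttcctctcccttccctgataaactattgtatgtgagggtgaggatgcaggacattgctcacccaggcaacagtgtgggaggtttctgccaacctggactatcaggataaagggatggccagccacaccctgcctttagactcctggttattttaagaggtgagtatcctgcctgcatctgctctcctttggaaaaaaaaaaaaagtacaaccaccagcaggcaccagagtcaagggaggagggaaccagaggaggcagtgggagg
Pgk1, chrX:106186850-106187149, plus strand: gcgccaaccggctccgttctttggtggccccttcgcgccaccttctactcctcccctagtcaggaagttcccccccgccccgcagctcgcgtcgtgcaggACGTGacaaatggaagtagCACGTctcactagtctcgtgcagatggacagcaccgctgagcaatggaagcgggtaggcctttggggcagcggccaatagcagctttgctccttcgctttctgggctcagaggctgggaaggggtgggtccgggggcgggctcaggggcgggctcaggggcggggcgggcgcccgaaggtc
Ldha, chr7:46845554-46845853, plus strand: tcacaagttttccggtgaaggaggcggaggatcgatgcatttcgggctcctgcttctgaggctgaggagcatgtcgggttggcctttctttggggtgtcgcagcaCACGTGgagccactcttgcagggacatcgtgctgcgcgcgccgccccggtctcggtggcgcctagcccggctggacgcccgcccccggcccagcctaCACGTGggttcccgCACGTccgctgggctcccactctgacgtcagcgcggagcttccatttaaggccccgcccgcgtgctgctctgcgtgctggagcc
All 9 genes matched an entry of the promoter table. ACGTG occurred in 5 of the 9 windows (55.6%), those of Slc2a1, Hk2, Pgk1, Pgam1 and Ldha, against 19.6% of 32851 mouse promoters of the same length. CACGTG, the E box bound by Myc and related factors, occurred in that of Ldha alone (11.1%), against 7.15% of all promoters. The Ldha window held 5 matches to ACGTG, counted over both strands, of which 4 belong to its 2 copies of CACGTG. The windows of Pfkl, Aldoa, Tpi1 and Pkm held no match to either motif. Where the table lists several promoters, 3 for Aldoa and 2 each for Pkm and Ldha, only the one nearest to the start of the gene in the expression table was searched. A match describes letters in a window and does not show that a factor binds there.

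With the ethanolamine kinases targeted, 8 of the 9 genes were below the shLuc mean and Slc2a1 was above it, and none passed the test. The median log2 difference of the 9 genes, on the scale of log2(RPKM + 1), was -0.12, against -0.06 over all 11939 genes tested, of which 64.3% were below 0. It was -0.02 without the library labelled shLuc replicate 2 and -0.05 with a common median ratio or with the length trend removed. Of the 9 genes, 7 lay below both shLuc libraries and 1 above both, where 51.9% of all genes lay below both and 25% above both. Limma (Benjamini-Hochberg adjusted p under 0.05 over all genes tested) called 3.46% of all genes and 0 of the 9. Limma-voom on reads also called 0 of the 9. At an unadjusted p under 0.05 stood 2 of the 9 genes, beside 2284 of all 11939. Those 2 were Tpi1, with a difference of -0.21 (SE 0.06, adjusted p = 0.114 by limma), and Ldha, with a difference of -0.15 (SE 0.06, adjusted p = 0.215 by limma).

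With Pcyt2 targeted, 7 of the 9 genes were above the shLuc mean, and again none passed. The median difference was 0.07, against -0.02 over all genes, of which 55.5% were below 0. Of the 9 genes, 6 lay above both shLuc libraries and 1 below both, beside 29% and 39.4% of all genes. Limma called 0.109% of all genes and 0 of the 9, and limma-voom called 0 of the 9. At an unadjusted p under 0.05 stood 1 of the 9 genes, beside 713 of all 11939. That gene was Pgk1, with a difference of 0.15 (SE 0.07, adjusted p = 0.836 by limma). Pfkl had the largest difference, 0.23 (SE 0.11, adjusted p = 0.855 by limma).

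Without ethanolamine, all 9 genes were below the shLuc mean, by log2 differences of -0.02 to -0.23, and none passed. The median was -0.10, against -0.01 over all genes, of which 53.1% were below 0. Of the 9 genes, 7 lay below both shLuc libraries and 0 above both, beside 41.9% and 36% of all genes. Limma called 3.8% of all genes and 0 of the 9. At an unadjusted p under 0.05 stood 2 of the 9 genes, beside 2375 of all 11939. Aldoa differed by -0.23 (SE 0.07, 95% interval -0.37 to -0.08, adjusted p = 0.0896 by limma) and Tpi1 by -0.22 (SE 0.06, adjusted p = 0.0934 by limma). Both were near the threshold, and whether they passed depended on the setting. Aldoa passed under 3 of 11 alternatives and Tpi1 under 2 of 11, and neither passed with the length trend removed. Aldoa passed with limma-voom (adjusted p = 0.0427), and both genes passed when genes under a mean of 10 RPKM were left out, at adjusted p = 0.0306 and 0.0366 by limma. Transcript length moved with this difference, since the median over all genes was -0.12 under 1500 nt, -0.05 from 1500 to 2000 nt and 0.03 above 4000 nt. The transcripts of Aldoa and Tpi1 measure 1824 and 1601 nt. With the length trend removed the median of the 9 genes was -0.05, and with trends of length and GC content removed -0.01. It was -0.06 without the library labelled shLuc replicate 2 and -0.15 without replicate 1. Pou5f1 and Sox2 were lower in this library and in shEtnk1/2 than in the other 4, and their part in these differences was not tested.

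With Pebp1 targeted, the 9 genes lay within -0.07 to 0.04 log2 units of the shLuc mean, 7 below and 2 above. The median was -0.03, against 0.01 over all genes, of which 46.9% were below 0. Of the 9 genes, 3 lay below both shLuc libraries and 1 above both, beside 31.7% and 36.6% of all genes. Limma called 0.101% of all genes and 0 of the 9, and limma-voom called 0 of the 9. At an unadjusted p under 0.05 stood 0 of the 9 genes, beside 698 of all 11939. Without the library labelled shLuc replicate 2 the median was 0.03, and without replicate 1 it was -0.06.

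**Figure D2:**
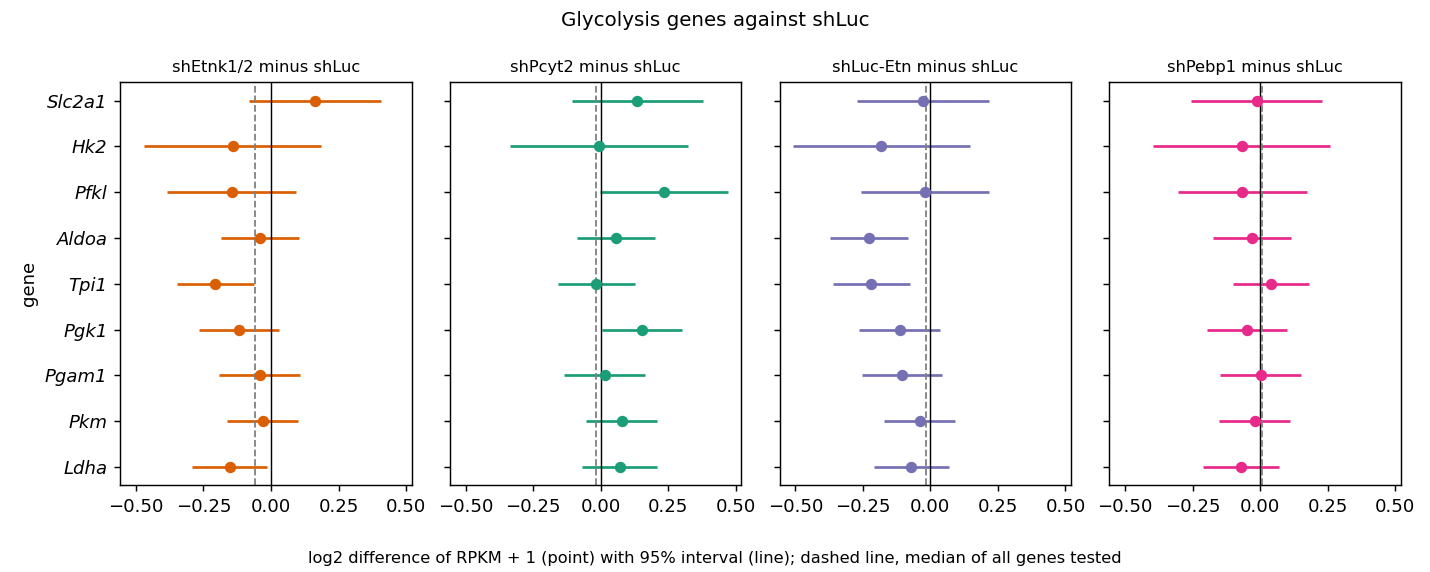
Log2 difference of RPKM + 1 from the shLuc mean (horizontal axis) for each of the 9 genes (vertical axis), in 1 panel per treated library, with 95% limma intervals as lines and the median of all genes tested as a dashed line. All 9 points lie left of 0 in shLuc-Etn and 7 lie right of 0 in shPcyt2, and the widest intervals are those of Hk2.

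The intervals set what these libraries could show. Over the 4 comparisons with shLuc the 95% limits ran from -0.51, for Hk2 in shLuc-Etn, to 0.47, for Pfkl in shPcyt2, or ratios of 0.703 to 1.39 on the RPKM + 1 scale. These are the widest limits of any of the 9 genes, and those of Pkm ran from -0.17 to 0.21. The shLuc pair itself differed by a median of 0.07 over the 9 genes, with 8 higher in the library labelled replicate 2 and Hk2 furthest, at 0.26. The median over all genes was 0.00 for that pair, with 48.9% below 0.

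Taken as 1 group of 3 libraries, the inhibited pathway left the 9 genes at a median of -0.04 against shLuc, with -0.03 over all genes. Of the 9 genes, 6 were below 0 and 3 above, beside 61.0% of all genes below 0. Limma called 0% of all genes, with 724 at an unadjusted p under 0.05 and 0 by limma-voom. Of the 9 genes, 0 passed, 0 had an unadjusted p under 0.05, and the lowest adjusted p was 0.817 by limma, for Tpi1, at a difference of -0.15. Taken singly, the medians were -0.12 in shEtnk1/2, 0.07 in shPcyt2 and -0.10 in shLuc-Etn, beside 0.07 between the 2 shLuc libraries. The lowest p that a permutation of 3 against 2 libraries allows is 0.1.

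The widest contrast among the treatments lay between shPcyt2, which had the highest value for 5 of the 9 genes, and shLuc-Etn, which had the lowest for 5. All 9 genes were higher in shPcyt2 than in shLuc-Etn, by a median of 0.17, against -0.01 over all genes. Of all genes, 51.2% were below 0 in this contrast. Limma called 3.22% of all genes and 0 of the 9 in this contrast. At an unadjusted p under 0.05 stood 3 of the 9 genes, beside 2322 of all 11939. Those 3 were Aldoa at 0.28 (SE 0.08, adjusted p = 0.0759 by limma), Pgk1 at 0.27 (SE 0.08, adjusted p = 0.0949 by limma) and Tpi1 at 0.20 (SE 0.07, adjusted p = 0.167 by limma). Aldoa and Pgk1 passed under 3 alternatives, among them limma-voom (adjusted p = 0.0219 and 0.0425). Neither passed with the length trend removed. Over all genes under 1500 nt the median against shLuc was 0.03 in shPcyt2 and -0.12 in shLuc-Etn. From 1500 to 2000 nt it was 0.02 and -0.05, and above 4000 nt -0.05 and 0.03. Aldoa, Pgk1 and Tpi1 measure 1824, 1825 and 1601 nt, and the part of length in the median of 0.17 was not tested. Each side of the contrast is 1 library, and its spread was taken from the shLuc pair.

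Between shEtnk1/2 and shPcyt2, both aimed at the same pathway by hairpin, 8 of the 9 genes were lower in shEtnk1/2. The median was -0.14, against -0.04 over all genes, of which 58.4% were lower. Limma called 0.921% of all genes and 0 of the 9, and limma-voom called 0 of the 9. At an unadjusted p under 0.05 stood 4 of the 9 genes, beside 1538 of all 11939. Pfkl differed by -0.38 (SE 0.12, adjusted p = 0.211 by limma), Pgk1 by -0.27 (SE 0.08, adjusted p = 0.150 by limma), Ldha by -0.22 and Tpi1 by -0.19. Between shEtnk1/2 and shLuc-Etn the median was 0.01, with 0.854% of all genes and 0 of the 9 called. Aldoa, with a difference of 0.19, was alone of the 9 at an unadjusted p under 0.05, beside 1722 of all 11939 genes. Between shLuc-Etn and shPebp1 the median was -0.06, with 1.22% of all genes and 0 of the 9 called. Tpi1 (-0.26, adjusted p = 0.132 by limma) and Aldoa (-0.20, adjusted p = 0.250 by limma) were the 2 at an unadjusted p under 0.05. Below that p stood 1832 of all 11939 genes. Limma-voom called 0 of the 9 in both of these contrasts.

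The isoforms that share a step with these genes differed in their share of its RPKM, which measures RNA and not enzyme activity. Hk1, the hexokinase of most tissues, held 78.9% to 82.5% of the hexokinase RPKM over the 6 libraries, and Hk2 held 16.9% to 20.2%. Phosphofructokinase was split among 3 genes, with Pfkm at 41.8% to 46.6%, Pfkl at 34.6% to 40.2% and Pfkp at 17.1% to 19.9%. The ranges of Pfkm and Pfkl did not overlap. Aldoa held 95.03% to 96.9% of the aldolase RPKM, Pgam1 94.99% to 97.2% of phosphoglycerate mutase, and Ldha 74.7% to 76.6% of lactate dehydrogenase, beside Ldhb. Slc2a1 held 30.1% to 35.6% of the summed RPKM of 4 chosen transporter genes of its family. Slc2a10 held 24.8% to 29.9%, Slc2a12 21.3% to 25.03% and Slc2a3 14.8% to 18.4%. Slc2a4, at a mean of 0.681 RPKM, was left out of this sum, and the shares depend on which transporters are summed.

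**Figure D3:**
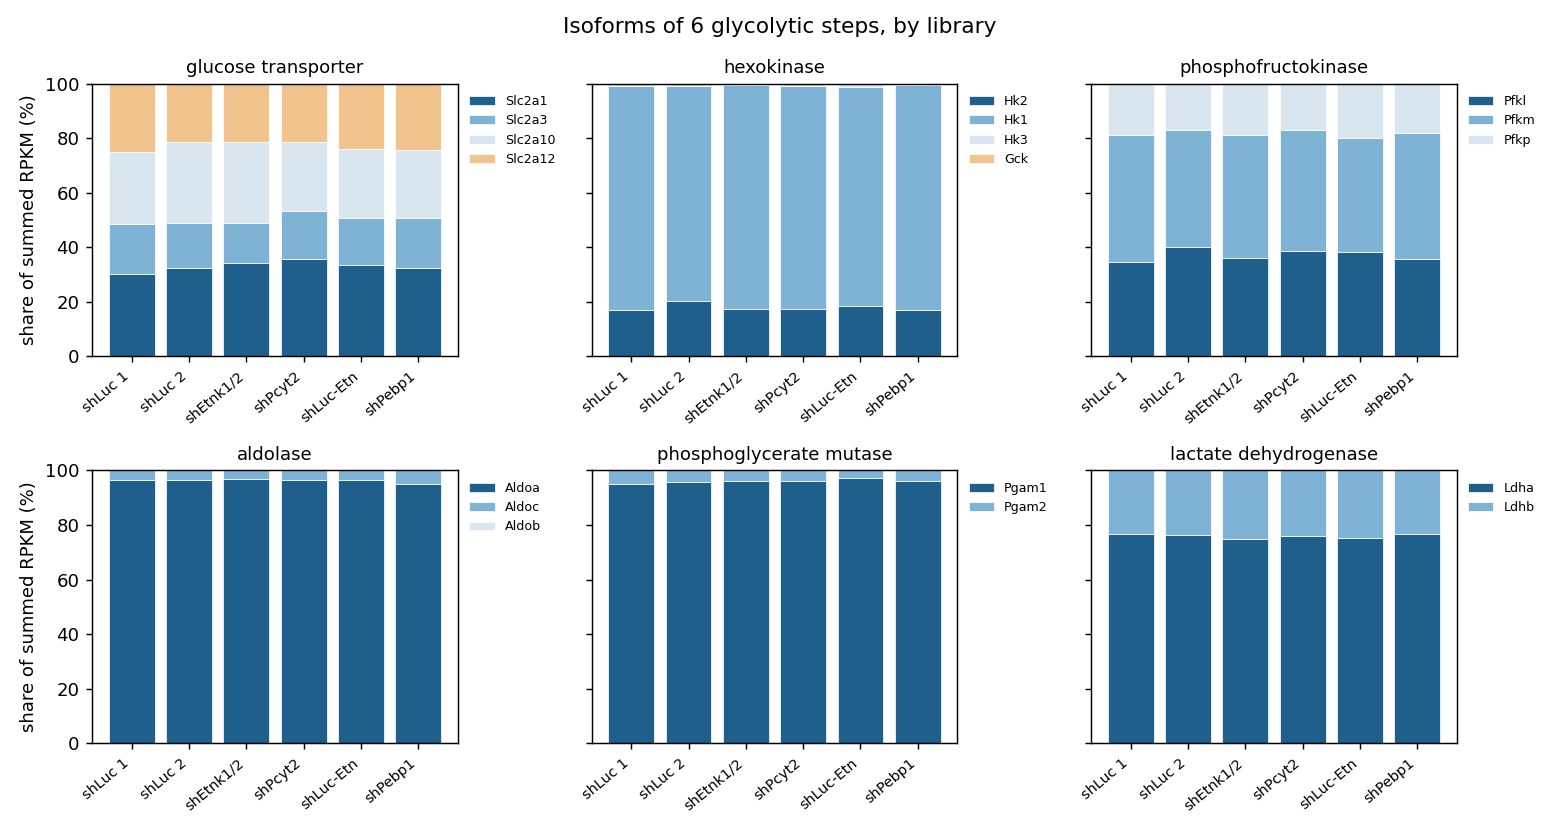
Share of the summed RPKM (vertical axis, percent) held by each isoform of 6 glycolytic steps, with 1 stacked bar per library. Hk1 holds 78.9% to 82.5% of hexokinase and Aldoa 95.03% to 96.9% of aldolase in every library, while phosphofructokinase is split among Pfkm, Pfkl and Pfkp.

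Of the other glycolytic isoforms and steps, 16 of 23 genes named were tested. Without ethanolamine 13 of the 16 were below the shLuc mean, at a median of -0.15, beside 53.1% of all genes. Of the 16, 1 passed, beside 3.8% of all genes. Pgam2, the muscle form of the mutase, fell from 10.4 and 9.09 RPKM in the shLuc libraries to 5.46, a difference of -0.73 (SE 0.12, adjusted p = 0.0107 by limma). Pgam2 rested on 92 reads in shLuc-Etn, and it missed the threshold with limma-voom and with the length trend removed. Gapdh, which links the triose phosphates to Pgk1, was at 1097 and 1133 RPKM in the shLuc libraries, 989.4 in shEtnk1/2, 1151 in shPcyt2, 948.0 in shLuc-Etn and 1102 in shPebp1. It passed only between shPcyt2 and shLuc-Etn, at 0.28 (SE 0.07, adjusted p = 0.0491 by limma), and missed the threshold with the length trend removed (a difference of 0.18). Aldoc, a minor aldolase, was lower in shLuc-Etn, at 6.38 RPKM, than in shPebp1, at 10.7 (a difference of -0.66, adjusted p = 0.0436 by limma), and this call was lost with limma-voom. None of the 16 passed in shEtnk1/2, where 13 were below 0, in shPcyt2, where 8 were, or in shPebp1, where 7 were. Of all genes, 64.3% were below 0 in shEtnk1/2, 55.5% in shPcyt2 and 46.9% in shPebp1.

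Of the regulators of glycolysis and of pyruvate entry into mitochondria, 24 of 26 were tested. Without ethanolamine 2 of the 24 passed, beside 3.8% of all genes. Hif1a, the oxygen-sensitive subunit of the factor that drives many glycolytic genes in low oxygen, rose from 54.6 and 58.8 RPKM to 72.8, a difference of 0.36 (SE 0.08, adjusted p = 0.0342 by limma). Mpc2, a subunit of the carrier that brings pyruvate into mitochondria, fell from 25.2 and 25.4 RPKM to 18.6, a difference of -0.42 (SE 0.09, adjusted p = 0.0277 by limma). Its partner Mpc1 passed no test. In shEtnk1/2, shPcyt2 and shPebp1 none of the 24 passed, Myc included. Of 13 hypoxia targets outside glycolysis, 1 passed in shEtnk1/2 and in shLuc-Etn, beside 3.46% and 3.8% of all genes. It was the same gene in both, Lox, which cross-links collagen in the matrix. Lox was at 131.6 and 137.7 RPKM in the shLuc libraries, 198.9 in shEtnk1/2 and 173.1 in shLuc-Etn. Its differences were 0.56 (adjusted p = 0.00299 by limma) and 0.36 (adjusted p = 0.0170 by limma). The summed fibroblast markers, collagens among them, were also highest in shEtnk1/2, and their part in this was not tested. The medians of the hypoxia targets were 0.11 in shEtnk1/2, 0.07 in shPcyt2, 0.04 in shLuc-Etn and -0.01 in shPebp1. In the same order those of the 9 glycolysis genes were -0.12, 0.07, -0.10 and -0.03. Those of all genes were -0.06, -0.02, -0.01 and 0.01. Of the 13 targets, 8, 7, 7 and 4 were above 0.

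In the branches that leave glycolysis no gene passed in a comparison with shLuc. Of 14 genes of the pentose phosphate and serine branches, 13 were below the shLuc mean in shEtnk1/2 (median -0.19) and 13 in shLuc-Etn (median -0.11), beside 64.3% (median -0.06) and 53.1% (median -0.01) of all genes. Shmt1, which moves one-carbon units from serine, was furthest down, at -0.42 in shEtnk1/2 (adjusted p = 0.0775 by limma), and Shmt2, its mitochondrial counterpart, at -0.33 in shLuc-Etn (adjusted p = 0.0518 by limma). Of 11 genes of gluconeogenesis and glycogen, 0 passed in any comparison with shLuc. Of 17 genes of the tricarboxylic acid cycle, 1 passed against shLuc, in shLuc-Etn, beside 3.8% of all genes. This was Sdhd, a subunit of succinate dehydrogenase. It fell from 67.4 and 71.1 RPKM to 53.0 in shLuc-Etn, a difference of -0.38 (SE 0.07, adjusted p = 0.0214 by limma). The cycle's median in that library was -0.03. Between treatments, Sdhd was higher in shPcyt2 than in shLuc-Etn by 0.53 (adjusted p = 0.00829 by limma), and Lox was higher in shEtnk1/2 than in shPcyt2 by 0.46 (adjusted p = 0.0270 by limma) and in shLuc-Etn than in shPebp1 by 0.48 (adjusted p = 0.0203 by limma). All 3 contrasts missed the threshold with the length trend removed. With either shLuc library left out, neither Pgam2, Hif1a, Mpc2 and Sdhd in shLuc-Etn nor Lox in either library passed. In shLuc-Etn these 5 genes also missed the threshold with the length trend removed.

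**Figure D4:**
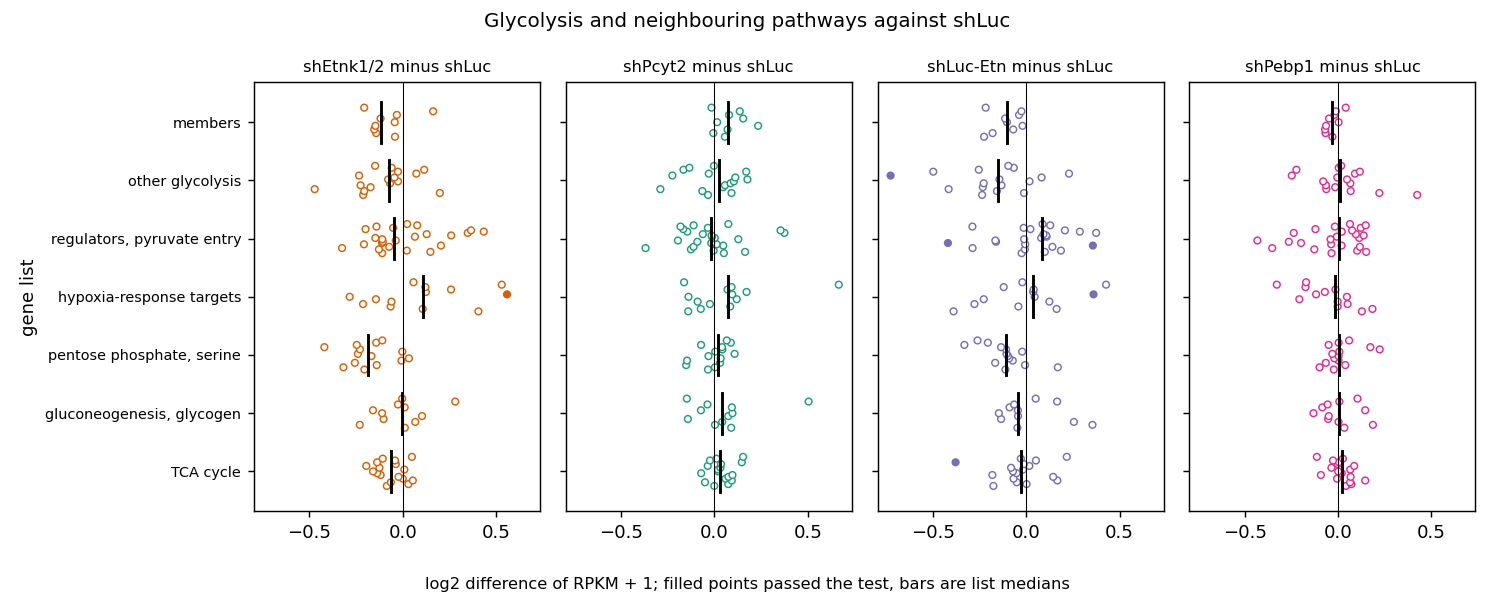
Log2 difference of RPKM + 1 from the shLuc mean (horizontal axis) for the genes of each list (rows), in 1 panel per treated library, with 1 point per gene, filled where the gene passed the test, and a bar at the list's median. The 9 glycolysis genes have no filled point, with a median of -0.10 in shLuc-Etn and 0.07 in shPcyt2.

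Averaged over the 9 genes and centred on its own mean, the profile across the 6 libraries ran from -0.09 log2 units in shLuc-Etn to 0.10 in shPcyt2, with 0.06 in the library labelled shLuc replicate 2. Pgam1 and Pkm lay nearest to this mean profile, each at a root mean square distance of 0.03 log2 units, and Slc2a1 lay furthest, at 0.08. Among 1424 other genes averaging 50 RPKM or more, the nearest over these 6 libraries were Atxn7l3b at 0.0119 log2 units, Ap1s1 at 0.0181, Ndufa9, a subunit of respiratory complex I, at 0.0227, Gpx4, which reduces lipid peroxides, at 0.0240, and Atp5b, a subunit of ATP synthase, at 0.0248. With 6 libraries and differences this small, many genes can lie near a profile, and the likeness is given as a description.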

How the data were processed

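Poly(A)-selected RNA of 6 libraries was read as paired ends, per the labels' protocols. The deposited table gives 1 RPKM value per gene and library, made by the authors. Per the submitters' processing notes, Bowtie 0.12.2 and the genome build mm10 were used. Gene models, counting tool and strand setting are not given in the sources. Gene coordinates are those deposited with the RPKM values. Promoters were looked up by symbol in RefSeq, and GC content by symbol in GENCODE (mm10).

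Whole reads were recovered from the ratios of RPKM between libraries for 100% of 18303 genes, within 1e-05 reads, and gave 18547721 to 20107998 reads in genes per library. For 561 genes the least whole reads had to be multiplied to give a whole transcript length. Whether they are reads or pairs is unknown. Of the symbols, 2 stood on 2 lines each.

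The 11939 genes averaging 1 RPKM or more were tested on log2(RPKM + 1) by limma 3.58.1 in R 4.3.3, with a trended, robust empirical Bayes step, 5 group means and two-sided p-values adjusted by Benjamini-Hochberg over all of them at a threshold of 0.05. The log scale with a pseudocount of 1 understates the change of low genes. Only the shLuc pair gave an estimate of spread (1 residual degree of freedom, prior 9.24), which the single libraries were assumed to share. The pathway comparison set 3 libraries against 2 (3 residual degrees of freedom, prior 6.37). The fit was also run on simulated data with known changes. These had the same dispersion for all genes and no length trend, so they cannot show how the fit holds for these libraries.

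The genes and lists were chosen with earlier results of these data known. Beside the 10 genes, the text names genes of the other lists that passed a test or differed most, the targeted genes, isoforms of the same step, and the 5 nearest profiles. Promoters were printed for the 2 genes with the largest fitted differences in any comparison (Pfkl and Aldoa), and Ldha and Pgk1 were added after their matches were seen. Alternatives were another pseudocount, no filter or a minimum of 10 RPKM, a common median ratio, quantile normalization, limma-voom on the recovered reads, removal of the length trend, leaving out small RNA genes, and leaving out each library. Removal of length and GC trends, with GC for 95.5% of genes tested, was chosen after seeing the data.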

Additional observations from a re-analysis of the deposited data

How the results depend on the processing

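That no glycolysis gene passed held under the alternatives run, except in 3 of the 9 comparisons. In shLuc-Etn against shLuc, 2 passed with a minimum of 10 RPKM and 2 without small RNA genes (Aldoa and Tpi1), and 1 with limma-voom (Aldoa). Between shPcyt2 and shLuc-Etn, Aldoa and Pgk1 passed under the same 3 settings (2 genes each), and between shEtnk1/2 and shPcyt2, 1 passed with a minimum of 10 RPKM (Pgk1, adjusted p = 0.0482 by limma). Calls over all genes in shEtnk1/2 numbered 413, against 790 with limma-voom, 781 without small RNA genes, 657 with a minimum of 10 RPKM, 241 with a common median ratio, 223 with the length trend removed, 153 with quantile normalization, 77 with length and GC trends removed, 0 with no filter, and 3 and 5 without shLuc replicates 1 and 2. In shLuc-Etn they numbered 454, against 699, 835, 804, 263, 111, 197, 28, 0, 15 and 12 under limma-voom, no small RNA genes, 10 RPKM, the common ratio, length, quantiles, length and GC, no filter, and without shLuc replicates 1 and 2. In shPcyt2 they ranged from 0 to 37 (13 as reported) and in shPebp1 from 0 to 16 (12 as reported). The lower calls in shEtnk1/2, 283 of 413, were 103 of 241 with a common median ratio and 72 of 153 with quantile normalization.

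The median of the 9 genes in shEtnk1/2, -0.12, was -0.0519 with a common median ratio, -0.0676 with quantile normalization, -0.0518 with the length trend and -0.0502 with length and GC trends removed, and -0.151 to -0.0205 without 1 shLuc library. In shLuc-Etn, -0.10 became -0.0528 and -0.0121 with the length and with both trends removed, and -0.147 to -0.0615 without 1 shLuc library. In shPebp1 it ranged from -0.0636 to 0.0271 without 1 shLuc library. In the pathway comparison it was 0.0073 with both trends removed and ranged from -0.111 (without shPcyt2) to 0.00738 without 1 library. The cause of these shifts was not tested.

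Single genes near 0, none of them past the test, changed sign. With a common median ratio these were Aldoa (0.0256), Pgam1 (0.0244) and Pkm (0.0358) in shEtnk1/2, Hk2 (0.0126) and Tpi1 (0.00639) in shPcyt2, Pgam1 (-0.00817) in shPebp1 and Pgk1 (0.00925) in the pathway comparison. With the length trend removed these were Aldoa (0.0256), Pgam1 (0.0242) and Pkm (0.0221) in shEtnk1/2, Hk2 (0.0434) in shPcyt2, Pgam1 (-0.00073) in shPebp1 and Pgk1 (0.00855) in the pathway comparison. With both trends removed they were Aldoa (0.0603), Pgam1 (0.0390) and Pkm (0.0641) in shEtnk1/2, Hk2 (0.0327) and Pgam1 (-0.00257) in shPcyt2, Pfkl (0.0923), Pkm (0.0956) and Slc2a1 (0.0605) in shLuc-Etn, Pkm (0.0110) in shPebp1, and Aldoa (0.0073), Pgam1 (0.0081) and Pgk1 (0.00685) in the pathway comparison. With quantile normalization they were Aldoa (-0.000524), Hk2 (0.0206) and Pgam1 (-0.0155) in shPcyt2, Pfkl (0.00158) and Pkm (0.0157) in shLuc-Etn and Pgam1 (-0.0050) in shPebp1. Without 1 library at a time, differences spanned 0 for Pgam1 in shEtnk1/2 (-0.0848 to 0.000371), Hk2 (-0.134 to 0.121) and Pgam1 (-0.0283 to 0.0568) in shPcyt2, and Pfkl (-0.114 to 0.0723) and Slc2a1 (-0.0662 to 0.0133) in shLuc-Etn. They did so in shPebp1 for Aldoa (-0.0636 to 0.000759), Hk2 (-0.196 to 0.0599), Pfkl (-0.158 to 0.0276), Pgam1 (-0.0405 to 0.0446) and Slc2a1 (-0.0524 to 0.0271). In the pathway comparison they did so for Aldoa (-0.134 to 0.00738), Hk2 (-0.238 to 0.018), Pfkl (-0.0832 to 0.115), Pgk1 (-0.116 to 0.0199) and Pkm (-0.035 to 0.0235).

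No paired analysis was possible because shLuc alone held more than 1 library. Leaving out a shLuc library leaves no residual spread within the groups of the single comparisons, so those fits took the spread from the other inhibited-pathway libraries pooled as 1 group, and lone libraries were assumed to vary likewise. Depth limits Slc2a1 most, with 424 to 521 reads per library.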
